A study of Mus musculus with 24 samples.

Results

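The genotype dependence of the morphine response was measured in the nucleus accumbens, gene by gene, as the response of VDR-/- mice (morphine minus PBS) minus the response of VDR+/+ mice on the log2 scale. This difference of differences is called the interaction below, and a positive interaction means that the difference between morphine and PBS was more positive in VDR-/- mice. It used 12 of the 24 libraries of the series, namely all those of the nucleus accumbens, and the 12 libraries of the ventral tegmental area were not used. The libraries fall into 4 groups of 3 mice: VDR+/+ (wild-type) mice given PBS (numbered 1, 2 and 3), VDR+/+ mice given morphine (1.0, 1.1 and 1.2), VDR-/- mice given PBS (7, 8 and 9) and VDR-/- mice given morphine (2.0, 2.1 and 2.2). Morphine sulfate was injected intraperitoneally at 5 mg/kg, a single dose. All mice were on a C57BL/6 background, and each library holds mRNA from a bilateral micropunch of frozen brain. VDR-/- mice lack the vitamin D receptor in every cell of the body and were raised on a diet enriched in calcium, phosphate and lactose, so genotype and diet cannot be told apart. The labels name a mouse for each library but no litter, day or pool, and the ages are not given in the labels. For the sequenced mice the study's text gives the same interval between injection and death with PBS as with morphine. The labels do not say whether PBS and morphine libraries were prepared together.

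Morphine acts on the mu opioid receptor, which couples to inhibitory G proteins, lowers cyclic AMP in the cells that carry it and, through the release of midbrain dopamine neurons from inhibition, raises dopamine in the nucleus accumbens. The principal cells there are medium spiny neurons, which carry dopamine receptors and express phosphoproteins such as DARPP-32 (Ppp1r1b). Neuronal activity induces transcription factors (Fos, Egr and Nr4a families, Npas4), effectors such as Arc, and inhibitors of MAP kinase signaling such as Dusp and Spry proteins. Opioids also engage the stress axis, and glucocorticoids induce genes such as Sgk1 and Tsc22d3 in neurons and glia. The vitamin D receptor is a nuclear hormone receptor that acts as a transcription factor with a retinoid X receptor as its partner.

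Libraries held 9328615 to 24509665 reads on genes (median 16578798). Vdr itself was at 1 to 14 reads in wild-type mice given PBS, 1 to 3 in wild-type mice given morphine, 6 to 10 in VDR-/- mice given PBS and 0 to 6 in VDR-/- mice given morphine. At these read numbers the transcript gives no check of the genotype labels, and Vdr was too low to be tested. Marker genes of medium spiny neurons were present in all libraries, with summed levels of 2594 to 5077 CPM (a gene's reads scaled to the same total of reads on genes in every library) over 8 markers. Wild-type PBS mouse 2 stood apart from the other libraries: limma's sample weights gave it 0.149, against 0.592 to 2.02 for the other 11. Several results turned or moved without it, and these are given with and without it below.

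Morphine changed many genes in either genotype, but for no gene did the 2 responses differ past the threshold. Of 15788 genes tested in one fit to all 12 libraries (limma on log2(value + 1), two-sided, with Benjamini-Hochberg adjustment over all genes and a threshold of 0.05), 0 (0%) had an interaction past the threshold. The smallest adjusted p was 0.396, for Tuba1c, which was at few reads in wild-type mice. At an unadjusted p under 0.05 there were 916 genes, 549 (3.48%) with a higher and 367 (2.32%) with a lower response in VDR-/- mice. The count of adjusted calls was also 0 with edgeR (890 genes at an unadjusted p under 0.05) and with DESeq2 (656) on reads recovered from the tables, and 0 without wild-type PBS mouse 2 (1257). The balance between higher and lower rested on single wild-type PBS mice, being 587 to 617 without mouse 1 and 686 to 732 without mouse 3. The precision of the comparison can be read from its errors. The standard error of the interaction had a median of 0.17 and quartiles of 0.12 and 0.30 on the log2 scale. The 95% interval lay within 1 log2 unit of 0 for 12354 genes (78.2%) and within 0.5 log2 units for 7334 genes (46.5%), so for most genes the interval left out an interaction beyond 2-fold, but not smaller ones.

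The responses of the genotypes ran largely in the same direction. In the joint fit 1052 genes passed the threshold in wild-type mice, 467 (2.96%) higher and 585 (3.71%) lower with morphine, and 1081 passed in VDR-/- mice, 591 (3.74%) higher and 490 (3.10%) lower. These counts depend on the shared error of the joint fit: with each genotype fitted in its own table, 128 genes passed in wild-type and 3018 in VDR-/- mice. Genes past the threshold in both genotypes numbered 476, which is 45.2% of the wild-type and 44.0% of the VDR-/- calls. Of these, 225 were higher and 251 lower in both genotypes, and 0 changed in opposite directions (0 of 518 with edgeR and 0 of 658 with DESeq2). Without wild-type PBS mouse 2 there were 815 such genes, and 1 went in opposite directions, Setd1b, a histone methyltransferase, with -0.19 in wild-type and 0.15 in VDR-/- mice. The 2 responses share no library, although they share the variance estimate of the fit, so the genes called in one genotype were read in the other. Of the 1052 genes called in wild-type mice, 1012 (96.2%) had the same sign in VDR-/- mice, and of the 1081 called in VDR-/- mice, 1038 (96.0%) had the same sign in wild-type mice, against 71.0% of all genes tested. Taken in the direction of the call, the median change of the wild-type calls was 0.48 in wild-type and 0.34 in VDR-/- mice, and that of the VDR-/- calls was 0.53 in VDR-/- and 0.37 in wild-type mice. Either set of calls had the smaller median in the genotype that had not been used to call it. Across the 15788 genes, which are not independent replicates, the responses had a Pearson correlation of 0.62 and a Spearman correlation of 0.54 (0.64 for Pearson without wild-type PBS mouse 2). In genes whose 3 morphine values all lay above or all below the 3 PBS values in both genotypes, the direction was the same for 2109 (13.4% of all genes tested) and opposite for 65 (0.412%).

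**Figure D1:**
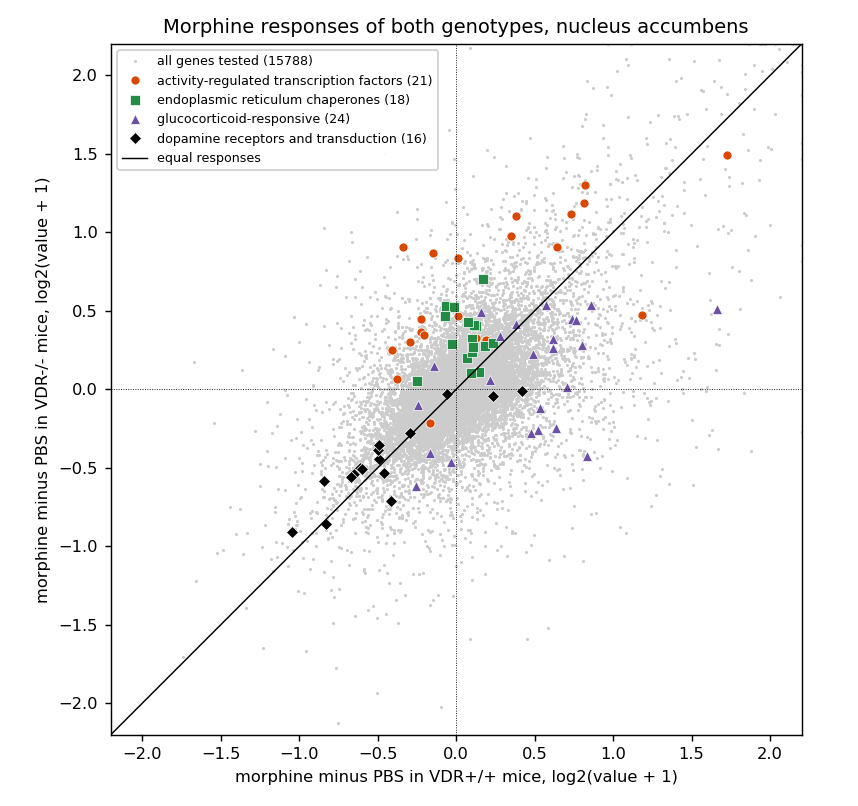
Difference between morphine and PBS in wild-type (horizontal) and VDR-/- mice (vertical), both as log2(value + 1) with 3 mice in each group. Gray points are the 15788 genes tested, with values beyond 2.2 log2 units drawn at the edge, coloured points are members of 4 gene lists, and the diagonal marks equal responses: dopamine genes lie along it in the lower left, activity-regulated transcription factors and endoplasmic reticulum chaperones mostly above it, and most glucocorticoid-responsive genes below it.

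The genes that passed most firmly in both genotypes had near-equal responses. Cd4, the T cell coreceptor that is also transcribed in brain, had normalized counts (reads divided by the size factor of the library) of 990.0, 742 and 819 in wild-type mice given PBS, 323, 355 and 323 in wild-type mice given morphine, 703, 586 and 755 in VDR-/- mice given PBS and 282, 232 and 259 in VDR-/- mice given morphine. No morphine value reached any PBS value in either genotype. Its change was -1.34 (adjusted p = 0.000541) in wild-type and -1.40 (adjusted p = 0.000941) in VDR-/- mice, with an interaction of -0.06 (95% interval -0.43 to 0.31). Ano2, a calcium-activated chloride channel, fell by 1.24 and 1.00 on the log2 scale in wild-type and VDR-/- mice. Rasgrp2, an activator of the small GTPase Rap, fell by 0.99 and 0.90, and Lrrc10b by 0.95 and 0.97. Hpca, the neuronal calcium sensor hippocalcin, Scn4b, a sodium channel beta subunit of striatal neurons, and Ptprv fell by 0.79, 1.07 and 1.14 in wild-type mice and by 0.82, 1.13 and 1.07 in VDR-/- mice. Among the genes that rose in both genotypes, Gjb6, the astrocyte gap junction protein connexin 30, changed by 1.13 and 0.96, and Col1a2, a collagen chain made by fibroblasts, by 1.05 and 1.32. The predicted gene Gm10925 changed by 4.09 and 3.69. In these 10 genes the interaction ran from -0.40 to 0.26.

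Several marker groups moved with morphine in both genotypes, beside the genes above. Medium spiny neuron markers summed to 4245 to 5077 CPM with PBS and 2955 to 3492 with morphine in wild-type mice, and to 3800.4 to 4403 and 2594 to 2941 in VDR-/- mice. In bulk tissue, fewer cells of a type and less RNA per cell cannot be told apart. Of the 8 markers, 6 passed the threshold as lower in wild-type and 7 in VDR-/- mice, and the median interaction was 0.05. Meningeal fibroblast markers (10 genes, summed) were at 43.5 to 46.4 and 59.5 to 111 CPM in wild-type mice and 46.6 to 50.6 and 88 to 123 CPM in VDR-/- mice, with no overlap between PBS and morphine in either genotype. Their median response was 0.77 in wild-type and 1.32 in VDR-/- mice. The interaction was positive for 8 of the 9 tested, with a median of 0.26 (0.08 to 0.46 with each library left out). Of the 9, 0 had an unadjusted interaction p under 0.05 (at most 2, as higher, with a library left out). The response was negative for 10 of 10 microglial markers in both genotypes (7 past the threshold in wild-type and 2 in VDR-/- mice, median interaction 0.13). Of 5 small RNAs 2 (Rny1 and Rny3), and of 13 mitochondrial transcripts 5 (mt-Nd4l, mt-Co2, mt-Co3, mt-Atp6 and mt-Atp8), passed the threshold as higher with morphine in both genotypes. Rny3, a Y RNA, was listed at 0, 2.6 and 0.647 in wild-type mice given PBS, 179, 44.4 and 36.7 in wild-type mice given morphine, 0, 0 and 1.69 in VDR-/- mice given PBS and 18.5, 115 and 149.5 in VDR-/- mice given morphine, and mt-Co2 at 29.5, 29.8 and 31, 346, 172 and 116, 19.5, 30 and 34.6 and 78.1, 231 and 236 in the same order of groups. The other mitochondrial transcripts, mt-Nd3 apart, had negative responses in both genotypes (7 of 13, with list medians of -0.18 and -0.16), among them mt-Co1 at -0.31 and -0.25, and mt-Nd6 fell past the threshold in VDR-/- mice (-0.37, adjusted p = 0.0101). The interactions of Rny3 and mt-Co2 were 0.43 (-0.07 without wild-type PBS mouse 2) and -0.09, and 0 of 5 small RNAs and 0 of 13 mitochondrial genes tested had an unadjusted interaction p under 0.05 (at most 2 small RNAs, as higher, and 2 mitochondrial genes, as lower, with a library left out). The part of tissue composition and of RNA recovery in the responses was not tested.

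Other marker groups had positive median interactions, as the meningeal markers did. Endothelial markers (10 genes) summed to 262 to 276 CPM with PBS and 233 to 294 with morphine in wild-type mice, which overlapped. In VDR-/- mice they summed to 214 to 226 and 236 to 258, which did not overlap. Groups without overlap were also more frequent in VDR-/- mice over all 15788 genes tested, at 5987 genes against 4033 in wild-type mice. The median interaction of the endothelial markers was 0.30 (0.24 to 0.40 with each library left out), positive for 8 of 10. An unadjusted p under 0.05 was found for 2, Cldn5, a tight junction protein (0.75), and Flt1, a VEGF receptor (0.31). That count was 6 without wild-type morphine mouse 1.0, 3 or 4 without 5 other libraries, 1 without VDR-/- PBS mouse 7 and 0 without any of the remaining 5. Oligodendrocyte precursor markers (3 genes) had a median interaction of 0.28 (0.18 to 0.39 with each library left out, lowest without wild-type PBS mouse 2). The list was split, with 2 members above 0, among them Gpr17 at 0.40 (unadjusted p = 0.00358), and 1 below, at -0.24. These markers summed to 133 to 157 and 169 to 184 CPM in VDR-/- mice against 160.0 to 173 and 172 to 192 in wild-type mice. Ependymal markers (4 genes) had a median of 0.66 (0.28 to 1.23 with each library left out, highest without wild-type PBS mouse 2), with 0 at an unadjusted p under 0.05 (1 without wild-type mouse 2 or 1.1), and summed to 8.22 to 11.5 and 13.3 to 16.8 CPM in VDR-/- mice against 7.22 to 19.3 and 5.83 to 21.1 in wild-type mice. The part of these cell types in the interactions described below was not tested.

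The interactions were next described by 13 lists of genes, whose members move together within a mouse and are not independent of each other. No member of any list passed the threshold over all genes tested. The counts below are therefore of members with an unadjusted p under 0.05, to be set against 3.48% higher and 2.32% lower among all genes, whose median interaction was -0.01. Counts by sign are to be set against all 15788 genes, of which 8084 were higher with morphine in wild-type and 7694 in VDR-/- mice. The interaction was positive for 7526 genes and negative for 8262. Response calls are to be set against 2.96% higher and 3.71% lower in wild-type and 3.74% and 3.10% in VDR-/- mice. All this holds for the marker groups above too. Some genes stand in more than one list, such as Per1, Sik1, Errfi1 and Ppp1r1b.

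**Figure D2:**
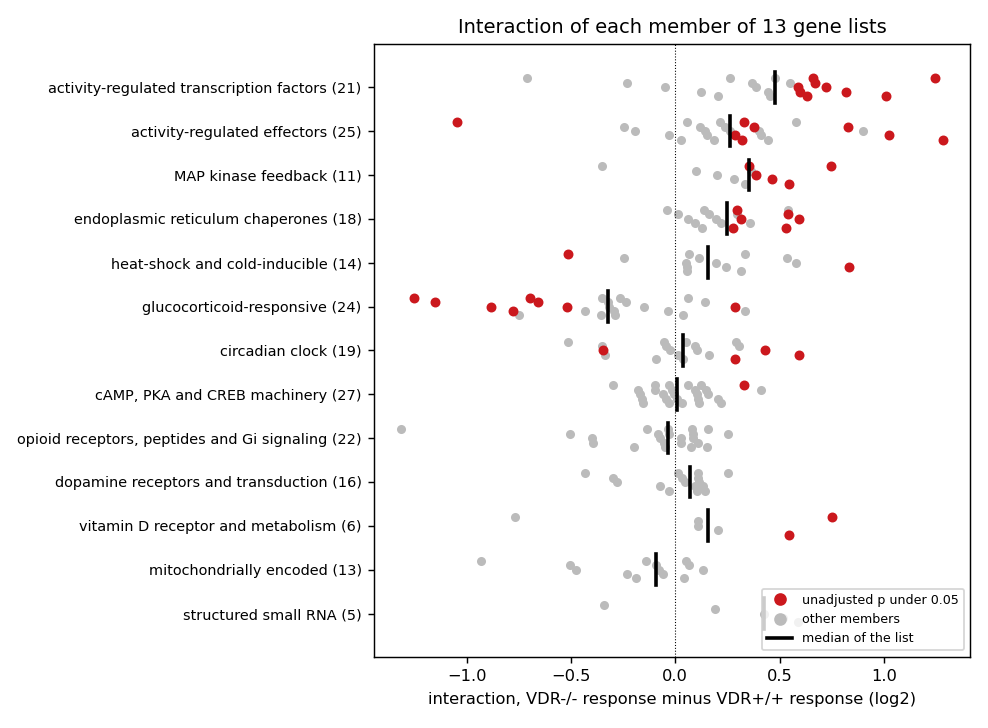
Interaction (VDR-/- response minus wild-type response, log2) of each tested member of 13 lists, with the number tested in parentheses. Each point is a gene, red where the unadjusted limma p was under 0.05, and black bars are list medians: 0.48 for activity-regulated transcription factors and 0.25 for endoplasmic reticulum chaperones, -0.32 for glucocorticoid-responsive genes and 0.07 for dopamine genes.

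Activity-regulated transcription factors were higher with morphine in VDR-/- mice, while in wild-type mice their median was close to no change and the members were spread. Of 23 listed genes 21 were tested, since Fosl1 and Jund had at most 6 reads in a library. With morphine 20 of the 21 were higher in VDR-/- mice, 8 of them past the threshold, with a median of 0.47, while in wild-type mice 12 were higher, 2 past the threshold, with a median of 0.02. The wild-type median was -0.09 without wild-type PBS mouse 2 and 0.17 without wild-type PBS mouse 3. Wild-type responses of the members ran from -0.41 (Egr1) to 1.72 (Atf3). The interaction was positive for 18, with a median of 0.48, and 9 had an unadjusted p under 0.05, all higher. The median was 0.36 to 0.70 when each library was left out in turn (0.63 without wild-type PBS mouse 2). The count of 9 was less stable: it was 3 without VDR-/- morphine mouse 2.0 or VDR-/- PBS mouse 8, 4 without wild-type morphine mouse 1.0, 5 without wild-type PBS mouse 3, 6 without VDR-/- PBS mouse 9 and 15 without VDR-/- PBS mouse 7.

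Npas4, a neuron-specific factor induced by calcium entry, had normalized counts of 407, 478 and 689 in wild-type mice given PBS, 443, 465 and 479 in wild-type mice given morphine, 269, 362 and 432 in VDR-/- mice given PBS and 649, 679 and 582 in VDR-/- mice given morphine. In VDR-/- mice every morphine value lay above every PBS value, and in wild-type mice the morphine values lay inside the range of the PBS values. Here and for the genes below, separation is to be set against all 15788 genes tested. Of these, 5987 were separated in either direction in VDR-/- mice and 4033 in wild-type mice, and 2174 were separated in both genotypes. Separation in VDR-/- mice alone was therefore frequent over all genes. The difference between the injections was -0.15 (adjusted p = 0.652) in wild-type and 0.87 (adjusted p = 0.0192) in VDR-/- mice, and the interaction was 1.01 (standard error 0.26, 95% interval 0.44 to 1.58, unadjusted p = 0.00221). In an exact permutation test over 400 arrangements (two-sided), the interaction of Npas4 gave p = 0.04 with injection permuted within genotype and p = 0.01 with genotype permuted within injection. An effect of morphine common to the genotypes widens the reference distribution of the former, and a genotype effect common to the injections widens that of the latter, which was made on CPM. The smallest p this test can give is 0.005, and the p-values over the 8 genes tested are unadjusted.

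Fos, the transcription factor that forms AP-1 with Jun proteins, had normalized counts of 213, 197 and 333 in wild-type mice given PBS, 276, 341 and 330.0 in wild-type mice given morphine, 180.0, 131 and 216 in VDR-/- mice given PBS and 439, 357 and 329 in VDR-/- mice given morphine. The morphine values lay above all PBS values in VDR-/- mice, while in wild-type mice PBS mouse 3 overlapped the morphine group. The difference between morphine and PBS was 0.38 (adjusted p = 0.281) in wild-type and 1.11 (adjusted p = 0.0115) in VDR-/- mice. Its interaction was 0.72 (standard error 0.30, 95% interval 0.08 to 1.37, unadjusted p = 0.0316), with exact permutation p-values of 0.245 (injection permuted) and 0.05 (genotype permuted). Fosb, its relative that builds up with repeated drug exposure, differed between morphine and PBS by 0.35 and 0.98 (adjusted p = 0.00843 in VDR-/- mice), and Nr4a1, an orphan nuclear receptor, by 0.02 and 0.84 (adjusted p = 0.0337). In neither did wild-type mice pass the threshold.

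The zinc finger factors Egr1, Egr2 and Egr3 had negative responses in wild-type and positive ones in VDR-/- mice, none past the threshold. Egr2 was at 181, 80.5 and 121 in wild-type mice given PBS, 100.3, 82.3 and 104 in wild-type mice given morphine, 80.7, 42.1 and 72.6 in VDR-/- mice given PBS and 174, 119.8 and 79.8 in VDR-/- mice given morphine. Morphine and PBS values of Egr2 overlapped in both genotypes, and its interaction of 1.25 (standard error 0.47, 95% interval 0.23 to 2.26, unadjusted p = 0.0206) was the largest of the list. Egr1 and Egr3 had interactions of 0.66 and 0.60, Junb, an AP-1 subunit, 0.59, and Klf10, a Krüppel-like factor, 0.67. Other members rose in VDR-/- mice without a difference that the errors separate from wild-type: Fosl2 differed by 0.82 (adjusted p = 0.0151) and 1.19 (adjusted p = 0.00351) and Nr4a3 by 0.82 (adjusted p = 0.0503) and 1.30 (adjusted p = 0.0081). Their interactions were 0.37 (95% interval -0.14 to 0.88) and 0.48 (-0.22 to 1.18). Atf3, a stress-induced factor, went the other way at -0.23, with 1.72 in wild-type and 1.49 in VDR-/- mice.

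The promoters of these genes were searched for motifs. The lists were compiled from general knowledge, which can include known targets of the factors that bind these motifs. The shares below therefore describe the lists and are no support for a response to morphine. TGACG, the core of the cyclic AMP response element at which CREB binds, was searched on both strands in the 250 bases before the RefSeq start sites (GRCm38.p6). It was present in 13 of 17 list members with a promoter entry (76.5%) and in 11 of 18 activity-regulated effectors (61.1%), against 19.8% of 27025 genes. It was not particular to them, since 10 of 21 glucocorticoid-responsive genes (47.6%) and 7 of 16 endoplasmic reticulum chaperones (43.8%) had it too. The promoters of Fos (chr12:85473640-85473889, plus strand) and Npas4 (chr19:4989972-4990221, minus strand) are shown with the motif in capitals, read 5′ to 3′ along the gene, since both genes carry it in 2 copies. In Npas4 the first copy is on the opposite strand and reads CGTCA.
Fos: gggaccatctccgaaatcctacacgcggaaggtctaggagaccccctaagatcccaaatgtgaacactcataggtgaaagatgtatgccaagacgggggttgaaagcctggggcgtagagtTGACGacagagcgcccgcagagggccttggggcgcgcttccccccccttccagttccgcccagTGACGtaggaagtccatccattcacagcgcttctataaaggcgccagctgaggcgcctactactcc
Npas4: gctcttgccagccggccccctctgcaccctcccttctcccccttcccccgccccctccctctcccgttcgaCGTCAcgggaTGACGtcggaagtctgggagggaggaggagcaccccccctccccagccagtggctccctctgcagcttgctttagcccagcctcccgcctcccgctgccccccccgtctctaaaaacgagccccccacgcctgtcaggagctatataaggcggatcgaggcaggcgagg
A match describes the letters of the window and is not evidence of binding. The full palindrome TGACGTCA was in 1 of the 17 promoters and in 4 of the 18 effector promoters (Plk2, Pcsk1, Scg2 and Dio2), against 1.77% of all genes, and the AP-1 motif TGANTCA in 0 of 17 and 2 of 18, against 7.82%.

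Activity-regulated effectors showed the same direction with a smaller median. All 25 listed genes were tested. In VDR-/- mice 24 were higher with morphine, 10 past the threshold (median 0.56), and in wild-type mice 18 were higher, 7 past the threshold, with 1 lower, Plk2 (median 0.39). The median interaction was 0.26 (0.17 to 0.35 with each library left out), and 7 had an unadjusted p under 0.05 as higher and 1 as lower. The 7 were 4 without VDR-/- mouse 2.0, 8 or 9 or without wild-type mouse 1.0 or 1.1, and 10 without wild-type PBS mouse 2.

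Arc, a synaptic protein that controls AMPA receptor trafficking, had normalized counts of 1564, 1012 and 1986 in wild-type mice given PBS, 1437, 1425 and 1508 in wild-type mice given morphine, 966, 611 and 1044 in VDR-/- mice given PBS and 2520.4, 1939 and 1795 in VDR-/- mice given morphine. The 3 values of VDR-/- mice given morphine lay above all 3 of VDR-/- mice given PBS, while the 3 values of wild-type mice given morphine lay within the spread of their PBS group. Morphine and PBS differed by -0.01 (adjusted p = 0.986) in wild-type and by 1.28 (adjusted p = 0.0104) in VDR-/- mice. The interaction was 1.29 (standard error 0.33, 95% interval 0.56 to 2.01, unadjusted p = 0.00224), and the exact permutation test gave p = 0.05 with injection permuted and p = 0.005, its smallest possible value, with genotype permuted. Without wild-type PBS mouse 2 it was 1.55.

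Pim1, a serine/threonine kinase, was at 54.2, 41.5 and 50.5 in wild-type mice given PBS, 39.2, 59.2 and 45.1 in wild-type mice given morphine, 37.4, 35.6 and 38 in VDR-/- mice given PBS and 85.2, 59 and 81.4 in VDR-/- mice given morphine. Its morphine and PBS values did not overlap in VDR-/- mice and overlapped in wild-type mice, and the interaction was 1.03 (standard error 0.27, 95% interval 0.44 to 1.61, unadjusted p = 0.00247). Ptgs2, the inducible cyclooxygenase, had an interaction of 0.83, with 0.51 in wild-type and 1.34 (adjusted p = 0.0113) in VDR-/- mice. Vgf, a neuropeptide precursor, and Sik1, a kinase that restrains CREB coactivators, rose in both genotypes. Vgf changed by 0.39 (adjusted p = 0.0232) in wild-type and 0.71 (adjusted p = 0.00238) in VDR-/- mice, and Sik1 by 0.58 (adjusted p = 0.0037) and 0.91 (adjusted p = 0.000941), with interactions of 0.32 and 0.33. Rgs2 and Per1 had interactions of 0.38 and 0.29. Per1 gave exact permutation p-values of 0.05 in both schemes.

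Rasd1, a Ras-like protein induced by glucocorticoids and by dopamine receptor stimulation, was the effector with a lower response in VDR-/- mice at an unadjusted p under 0.05, and Pcsk1 (-0.24, or 0.00 without wild-type PBS mouse 2), Tiparp (-0.19) and Ccn1 (-0.03) were the other 3 below 0. Rasd1 was at 46.6, 70.1 and 59.5 in wild-type mice given PBS, 152, 283 and 197 in wild-type mice given morphine, 106, 140.5 and 114 in VDR-/- mice given PBS and 192, 179.7 and 239 in VDR-/- mice given morphine. Morphine and PBS values did not overlap in either genotype, but VDR-/- mice given PBS were already above wild-type mice given PBS, by 0.84 in log2(CPM + 1), and the genotypes were level after morphine (-0.04). The response was 1.80 (adjusted p = 0.00154) in wild-type and 0.76 (adjusted p = 0.0568) in VDR-/- mice, an interaction of -1.04 (standard error 0.31, 95% interval -1.71 to -0.37, unadjusted p = 0.00532).

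For 2 further activity-induced genes the responses did not differ beyond their errors. Bdnf, the neurotrophin, was at 62.8, 75.3 and 193 in wild-type mice given PBS, 124, 187 and 228 in wild-type mice given morphine, 177, 100.2 and 86.1 in VDR-/- mice given PBS and 278, 318 and 234 in VDR-/- mice given morphine. Its groups did not overlap in VDR-/- mice, and PBS mouse 3 overlapped the morphine group in wild-type mice. The interaction was 0.41 (95% interval -0.77 to 1.59), with exact permutation p-values of 0.65 and 0.49, and it turned to -0.08 without wild-type PBS mouse 3. Gem, a small GTPase that limits calcium channels, had an interaction of 0.90 (95% interval -0.01 to 1.81), with an exact permutation p of 0.365 with injection permuted. On the CPM scale its interaction was 0.51, with an exact permutation p of 0.12 with genotype permuted. For Fosl2 the same tests gave 0.615 and 0.13, and for Nr4a3 0.53 and 0.21. These 8 genes were the ones tested by permutation.

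**Figure D3:**
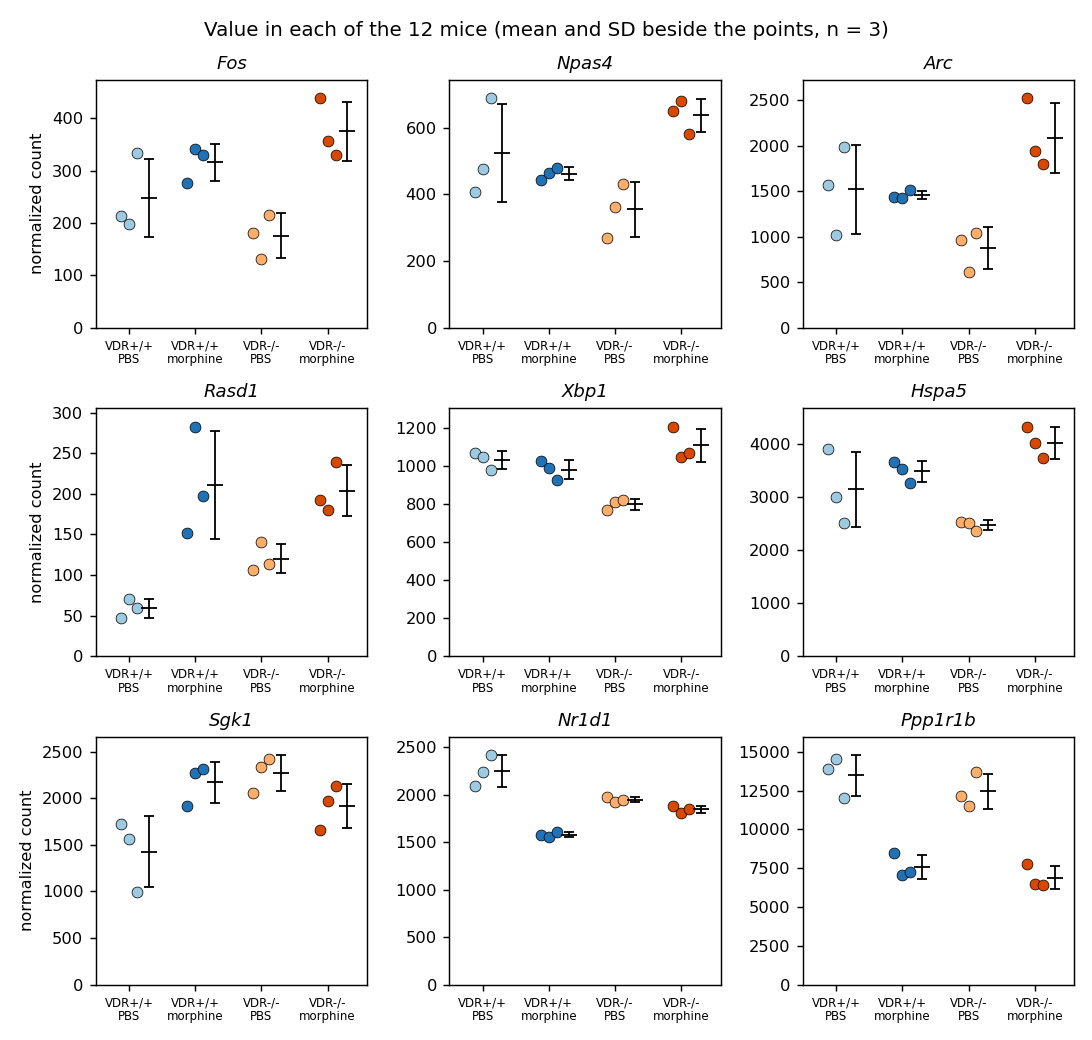
Normalized count in each of the 12 mice for 9 genes, with the mean and SD (n = 3) beside the points. The 2 genotypes are scaled separately, so heights compare within a genotype: Npas4, Arc, Fos, Xbp1 and Hspa5 separate morphine from PBS in VDR-/- mice and not in wild-type mice, Nr1d1 is lower with morphine by a wider gap in wild-type mice, Sgk1 separates in wild-type mice, and Ppp1r1b falls alike in both. Over all 15788 genes tested, 5987 were separated in VDR-/- mice, 4033 in wild-type mice and 2174 in both.

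Inhibitors of MAP kinase signaling, which are themselves induced by it, had the same pattern. Of 11 tested (Dusp2 had at most 12 reads), 10 had a positive interaction, with a median of 0.35 (0.23 to 0.45 with each library left out), and 5 had an unadjusted p under 0.05, all higher (2 without VDR-/- mouse 2.0 or 8 or wild-type PBS mouse 3, 3 without VDR-/- mouse 2.1 or 9 or wild-type mouse 1, 1.0 or 1.1, and 5 or 6 otherwise). The median response was 0.12 in wild-type and 0.33 in VDR-/- mice. Spry4, an inhibitor of receptor tyrosine kinase signaling, was at 284, 205 and 193 in wild-type mice given PBS, 262, 296 and 257 in wild-type mice given morphine, 188, 154 and 136 in VDR-/- mice given PBS and 345, 349.9 and 273 in VDR-/- mice given morphine. It rose in VDR-/- mice by 1.02 (adjusted p = 0.00545) with no overlap, against 0.27 (adjusted p = 0.313) with overlap in wild-type mice, an interaction of 0.75 (standard error 0.23, 95% interval 0.25 to 1.24, unadjusted p = 0.00637). Spred2, Spry2, Dusp6 and Dusp14 had interactions of 0.39, 0.35, 0.55 and 0.46. Errfi1, an inhibitor of the EGF receptor that glucocorticoids induce, was the exception at -0.35, having risen by 0.62 (adjusted p = 0.0124) in wild-type mice.

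Chaperones and folding enzymes of the endoplasmic reticulum, with the factors that induce them, were higher with morphine in VDR-/- mice and close to no change in wild-type mice, although no difference between the genotypes passed over all genes. All 18 were tested. In VDR-/- mice 18 of 18 were higher with morphine, 8 past the threshold, with a median of 0.29, and in wild-type mice 13 of 18 were higher, 0 past the threshold, with a median of 0.10 (0.02 to 0.18 with a wild-type library left out). The interaction was positive for 17, with a median of 0.25 (0.14 to 0.32 with each library left out), and 6 had an unadjusted p under 0.05, all higher (4 to 9 with each library left out).

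Xbp1, the transcription factor that the endoplasmic reticulum sensor IRE1 activates by splicing its mRNA, was at 1069.9, 1049 and 982 in wild-type mice given PBS, 1030.0, 990.4 and 929 in wild-type mice given morphine, 769, 811 and 821 in VDR-/- mice given PBS and 1209.9, 1051 and 1070.1 in VDR-/- mice given morphine. The wild-type groups overlapped, while VDR-/- mice given morphine lay above VDR-/- mice given PBS without overlap. The response of Xbp1 was -0.07 (adjusted p = 0.541) in wild-type and 0.47 (adjusted p = 0.0044) in VDR-/- mice, and its interaction of 0.54 (standard error 0.10, 95% interval 0.33 to 0.76, unadjusted p = 0.000129) had the smallest p after Tuba1c among protein-coding genes with a mean of at least 50 (adjusted p = 0.814). It stayed between 0.48 and 0.58 with each library left out. Total counts do not separate the spliced from the unspliced form.

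Hspa5, the main chaperone of the compartment (BiP), was at 3907, 3000.3 and 2505 in wild-type mice given PBS, 3645, 3516 and 3263 in wild-type mice given morphine, 2531, 2511 and 2357 in VDR-/- mice given PBS and 4319.9, 4012 and 3722 in VDR-/- mice given morphine. Its response was 0.17 (adjusted p = 0.417) in wild-type and 0.70 (adjusted p = 0.00912) in VDR-/- mice, with an interaction of 0.53 (standard error 0.18, 95% interval 0.15 to 0.92, unadjusted p = 0.0111). Wild-type PBS mouse 1 alone lay above the wild-type morphine mice, and without it the interaction was at its lowest, 0.36. Pdia4, a disulfide isomerase, had an interaction of 0.59, Calr, the calcium-binding lectin calreticulin, 0.31, Pdia6 0.30 and Hsp90b1, the chaperone GRP94, 0.28, and each of these 4 rose in VDR-/- mice (adjusted p = 0.0466, 0.0343, 0.0147 and 0.0201). Ddit3 and Herpud1, targets of the same stress response, had interactions of 0.30 and 0.14, and Dnajb9, another such target, 0.01 (-0.10 without wild-type PBS mouse 2).

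The endoplasmic reticulum stress element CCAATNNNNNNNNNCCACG, searched on both strands in the 250 bases before the start, was found in 7 of 16 list members with a promoter entry (Hspa5, Hsp90b1, Pdia6, Calr, Canx, Dnajc3 and Creld2; 43.8%), against 35 of 27025 genes (0.130%). Of these 7, 4 had an unadjusted interaction p under 0.05, and Canx (-0.04) and Dnajc3 (0.10) lay near 0. As for the motifs above, the share with the element describes how the list was made. The promoter of Hspa5 (chr2:34771840-34772089, plus strand, GRCm38.p6, from RefSeq) is given with the element in capitals, as that of the compartment's main chaperone.
Hspa5: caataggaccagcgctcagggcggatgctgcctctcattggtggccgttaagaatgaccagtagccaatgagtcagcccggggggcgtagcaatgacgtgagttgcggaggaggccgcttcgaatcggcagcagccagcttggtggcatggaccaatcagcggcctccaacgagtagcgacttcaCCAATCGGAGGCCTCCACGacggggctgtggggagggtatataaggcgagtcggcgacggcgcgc

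The list of heat-shock and cold-inducible genes had positive interactions for its 12 heat-shock genes, the mitochondrial chaperones Hspd1 and Hspe1 included, and negative ones for the cold-inducible Cirbp and Rbm3. The median of the 14 was 0.16 (0.09 to 0.20 with each library left out), and 1 was higher and 1 lower at an unadjusted p under 0.05. The higher count was 4 without wild-type morphine mouse 1.0, 3 without wild-type PBS mouse 2, 2 without VDR-/- mouse 2.2 and 0 without any of 7 other libraries, and the lower count ran from 0 to 2. Hspa1a, the inducible HSP70, was at 52.3, 35 and 36.2 in wild-type mice given PBS, 95.7, 55.5 and 42.3 in wild-type mice given morphine, 21.2, 29 and 25.3 in VDR-/- mice given PBS and 72.9, 66.7 and 64.8 in VDR-/- mice given morphine. Its groups did not overlap in VDR-/- mice and did in wild-type mice, and the interaction was 0.83 (standard error 0.37, 95% interval 0.02 to 1.65, unadjusted p = 0.0453). It shares reads with its near-identical neighbour Hspa1b (0.58), so the split between both is uncertain. Cirbp, an RNA-binding protein induced by mild cold, had a response of -0.32 in wild-type mice (adjusted p = 0.186) and fell by 0.83 in VDR-/- mice (adjusted p = 0.00703), an interaction of -0.51, while Rbm3, its relative, had -0.24.

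Glucocorticoid-responsive genes went in the opposite direction, with the larger response in wild-type mice. Of 25 listed, 24 were tested (Lcn2 was too low on average). In wild-type mice 19 of 24 were higher with morphine, 7 past the threshold, with a median of 0.53. In VDR-/- mice 15 were higher, 1 past the threshold, and 2 (Klf9 and Mt1) fell past it, with a median of 0.19. The interaction was negative for 19, with a median of -0.32 (-0.44 to -0.25 with each library left out). At an unadjusted p under 0.05, 7 were lower and 1, Per1, was higher. The 7 became 4 without VDR-/- morphine mouse 2.0 and 11 without wild-type morphine mouse 1.0.

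Sgk1, a kinase that glucocorticoids induce in glia and neurons, was at 1725, 1562 and 995 in wild-type mice given PBS, 1921, 2272 and 2318 in wild-type mice given morphine, 2058, 2333 and 2426 in VDR-/- mice given PBS and 1663, 1966 and 2130.2 in VDR-/- mice given morphine. Every wild-type morphine value lay above the wild-type PBS values, and the VDR-/- groups overlapped. The response of Sgk1 was 0.64 (adjusted p = 0.0466) in wild-type and -0.25 (adjusted p = 0.422) in VDR-/- mice, an interaction of -0.89 (standard error 0.24, 95% interval -1.41 to -0.36, unadjusted p = 0.00331). Wild-type PBS mouse 3 was the lowest of the 6 wild-type mice, and without it the interaction was -0.64.

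Tsc22d3, the anti-inflammatory leucine zipper protein GILZ, was at 922, 753 and 631 in wild-type mice given PBS, 1259.8, 1455 and 1262 in wild-type mice given morphine, 1057, 1014 and 1072 in VDR-/- mice given PBS and 1108, 1348 and 1386 in VDR-/- mice given morphine. It was separated in both genotypes, by 0.80 (adjusted p = 0.00463) in wild-type and 0.28 (adjusted p = 0.191) in VDR-/- mice, an interaction of -0.52 (standard error 0.18, 95% interval -0.90 to -0.13, unadjusted p = 0.0123). Plin4, a lipid droplet protein, was at 224, 136 and 129 in wild-type mice given PBS, 391, 475 and 685 in wild-type mice given morphine, 422, 848 and 419.6 in VDR-/- mice given PBS and 598, 848 and 861 in VDR-/- mice given morphine. Wild-type PBS and morphine values did not overlap, the VDR-/- groups did, and the interaction was -1.15 (standard error 0.42, 95% interval -2.07 to -0.23, unadjusted p = 0.0185). Ddit4, an inhibitor of mTOR signaling, had -0.70, Hif3a, a hypoxia-inducible factor subunit, -0.78, Nfkbia, the NF-kappa-B inhibitor, -0.66 and Angptl4, a secreted inhibitor of lipoprotein lipase, -1.25. Fkbp5, the classical sensor of the hormone in brain, had responses of 0.21 and 0.06, an interaction of -0.15. Zbtb16 had responses of 0.57 and 0.54, and Htra1 rose by 0.38 and 0.42.

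The glucocorticoid response element GNACANNNTGTNC was found in the 250 bases before the start of 2 of 21 list members with a promoter entry (Sgk1 and Mt1, 9.52%), against 0.440% of 27025 genes. This share too describes the list. The Sgk1 window (chr10:21993640-21993889, plus strand, GRCm38.p6, from RefSeq) is given with the element in capitals.
Sgk1: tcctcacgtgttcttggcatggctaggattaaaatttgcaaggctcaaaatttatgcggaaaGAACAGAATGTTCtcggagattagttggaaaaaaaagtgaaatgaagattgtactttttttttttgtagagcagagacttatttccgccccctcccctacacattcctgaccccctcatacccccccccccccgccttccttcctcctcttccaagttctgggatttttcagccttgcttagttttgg

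**Figure D4:**
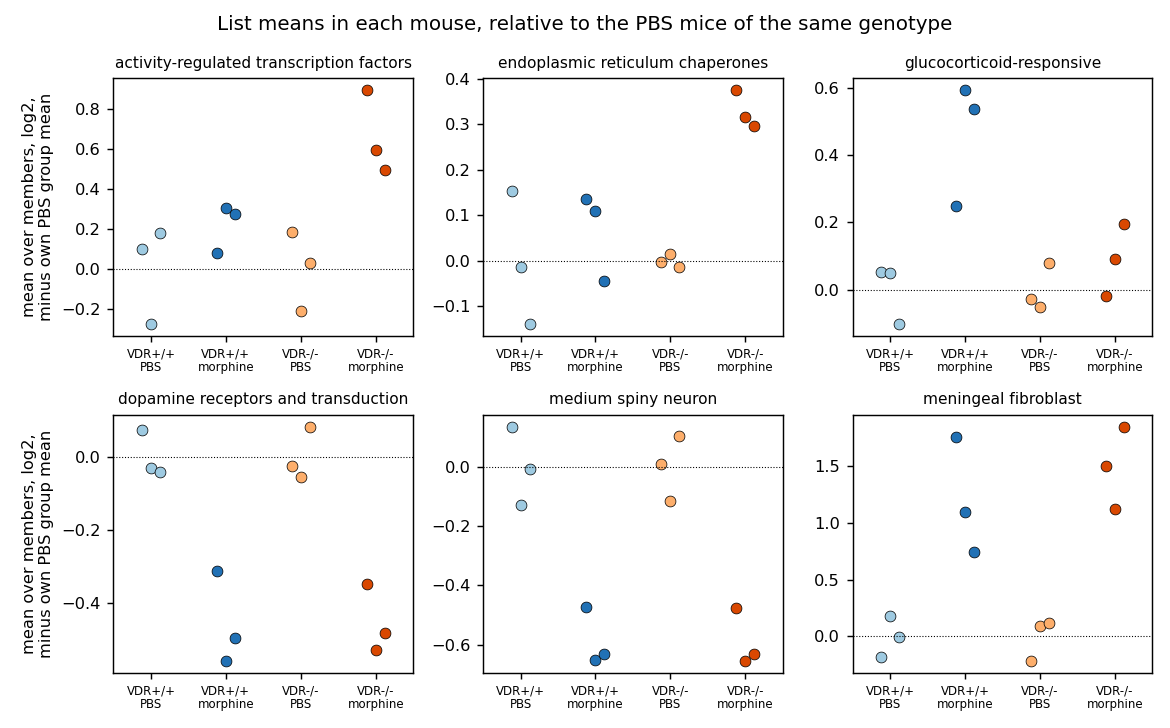
Mean of log2(value + 1) over the tested members of 6 lists in each mouse, minus the mean of the PBS mice of the same genotype, so that PBS points scatter around 0 and morphine points show the response. Activity-regulated transcription factors are at 0.08 to 0.30 in wild-type and 0.49 to 0.89 in VDR-/- mice given morphine, glucocorticoid-responsive genes at 0.25 to 0.59 and -0.02 to 0.19, and dopamine genes, medium spiny neuron markers and meningeal markers move in the same direction in both genotypes.

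Circadian genes had a median interaction of 0.04 over 19 members, with 3 higher and 1 lower at an unadjusted p under 0.05. With each library left out the median was -0.03 to 0.09 and the counts were 1 to 5 higher and 0 to 2 lower. The count was 5 and 2 without wild-type PBS mouse 2, and 1 was higher without wild-type mouse 1 or 1.0 or VDR-/- mouse 2.0. Nr1d1, the repressor REV-ERB alpha, was at 2090.3, 2244 and 2419 in wild-type mice given PBS, 1577, 1557 and 1609 in wild-type mice given morphine, 1974, 1923 and 1942 in VDR-/- mice given PBS and 1881, 1807 and 1849 in VDR-/- mice given morphine. Morphine and PBS values did not overlap in either genotype. It fell by 0.51 in wild-type mice (adjusted p = 0.00131) and had a response of -0.08 in VDR-/- mice (adjusted p = 0.466), an interaction of 0.43 (standard error 0.08, 95% interval 0.25 to 0.61, unadjusted p = 0.0002). Its partner Nr1d2 had -0.05 (0.05 without wild-type PBS mouse 2). Nfil3, a repressor of clock output genes, rose in VDR-/- mice by 1.06 (adjusted p = 0.00452), with an interaction of 0.59, and Per3 had -0.35 (-0.20 without wild-type PBS mouse 2). The output factors Dbp, Tef and Hlf fell in both genotypes, Dbp by 0.80 and 0.69, with interactions of 0.01 for Hlf, -0.09 for Tef and 0.11 for Dbp. Ciart fell in both, by 0.47 and 0.81.

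In the machinery of opioid, dopamine and cyclic AMP signaling the responses were close to each other. Of 16 dopamine receptor and transduction genes tested, 11 passed the threshold as lower in wild-type and 13 in VDR-/- mice, with medians of -0.49 and -0.50. Their median interaction was 0.07, and 0 had an unadjusted p under 0.05 (at most 2 higher and 1 lower with a library left out). Ppp1r1b, the protein phosphatase inhibitor DARPP-32, was at 13921, 14533 and 12029.7 in wild-type mice given PBS, 8473, 7046 and 7250.1 in wild-type mice given morphine, 12175, 11525 and 13704 in VDR-/- mice given PBS and 7743, 6494 and 6419 in VDR-/- mice given morphine. Morphine and PBS values did not overlap in either genotype, and the changes were -0.83 (adjusted p = 0.00204) and -0.86 (adjusted p = 0.00251), with an interaction of -0.03 (95% interval -0.36 to 0.30). Drd2 fell by 0.84 in wild-type and 0.59 in VDR-/- mice, Drd1 by 0.65 and 0.54, and Adora2a, the adenosine receptor of the same neurons as Drd2, by 1.05 and 0.91. These falls stand beside that of the medium spiny neuron markers given above, of which Ppp1r1b is itself one.

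Of 22 opioid receptor, peptide and inhibitory G protein genes tested (Pomc had at most 12 reads), 0 had an unadjusted interaction p under 0.05 (at most 1 higher and 1 lower with a library left out), and the median was -0.03. Oprm1, the mu receptor that morphine acts on, was at 255, 14.3 and 215 in wild-type mice given PBS, 187, 237 and 249.6 in wild-type mice given morphine, 169, 226 and 251 in VDR-/- mice given PBS and 170.5, 217 and 223 in VDR-/- mice given morphine. All libraries but wild-type PBS mouse 2 lay between 169 and 255. That library turned the interaction from 0.00 without it to -1.31 (95% interval -3.70 to 1.07) with it, and the wild-type response from -0.07 to 1.24. Kcnj6, a potassium channel opened by the receptor's G protein, likewise had -0.51 with it and 0.11 without it. Oprk1, the kappa receptor, fell in VDR-/- mice (-0.69, adjusted p = 0.0115) and was at -0.29 (adjusted p = 0.192) in wild-type mice, an interaction of -0.40. Penk, the enkephalin precursor, fell by 0.73 and 0.65, and Pnoc, the nociceptin precursor, rose by 1.33 and 1.41.

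Of 27 genes of the cyclic AMP, protein kinase A and CREB machinery, 1 had an unadjusted interaction p under 0.05, Sik1 as above, and the median was 0.01 (0.00 to 0.05 with each library left out). The count rested on single libraries, being 4 higher and 1 lower without wild-type PBS mouse 2, 2 higher without wild-type mouse 1.1, 1.2 or 3, and 0 without VDR-/- PBS mouse 9. Creb1 itself had -0.17 and Crem 0.12, which without wild-type PBS mouse 2 became 0.11 and 0.38. Pde1b, a phosphodiesterase of striatal neurons, fell by 0.79 in wild-type and 0.69 in VDR-/- mice, and Adcy5, the adenylyl cyclase of these neurons, by 0.67 and 0.56.

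Of 10 genes of the vitamin D system 6 were expressed highly enough to be tested, and Vdr, Cyp24a1, Cyp2r1 and Gc were not, with at most 19 reads in a library. Cyp27b1, which makes the active hormone, was at 23.8, 27.3 and 22.6 in wild-type mice given PBS, 19.1, 22.2 and 24 in wild-type mice given morphine, 13.6, 12.2 and 22 in VDR-/- mice given PBS and 26.7, 19.7 and 24.9 in VDR-/- mice given morphine. Its groups overlapped in both genotypes, and the interaction was 0.75 (standard error 0.34, 95% interval 0.01 to 1.49, unadjusted p = 0.0478). Cyp27a1, a mitochondrial sterol hydroxylase, had 0.55. These were the 2 of 6 with an unadjusted p under 0.05, a count that ran from 0, without wild-type PBS mouse 1 or 2 among others, to 2 with each library left out. The retinoid X receptors Rxra, Rxrb and Rxrg had 0.11, 0.11 and 0.20 (Rxrb -0.02 without wild-type PBS mouse 2), and Rxrg fell in wild-type mice (-0.66, adjusted p = 0.0133). Lrp2, an endocytic receptor for the vitamin D carrier, ran from 2.6 to 65.7 within wild-type mice, and its interaction of -0.77 had a standard error of 1.12 and turned to 0.10 without wild-type PBS mouse 2.

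Outside these lists, the genes with the smallest interaction p among protein-coding genes with a mean of at least 50 were taken in each direction. Tuba1c, an alpha tubulin, came first, at 12.4, 14.3 and 12.9 in wild-type mice given PBS, 4.56, 4.62 and 7.05 in wild-type mice given morphine, 386, 359.6 and 350.4 in VDR-/- mice given PBS and 424, 436 and 447 in VDR-/- mice given morphine. It lies on chromosome 15, 1.12 megabases from Vdr, it has near-identical copies elsewhere in the genome, and the wild-type values correspond to at most 20 reads in a library, so its level is uncertain. It met the mean of at least 50 only through the VDR-/- libraries, so its first rank is no support for an interaction. The wild-type morphine values lay below and the VDR-/- morphine values above their PBS groups, by -1.17 (adjusted p = 0.00212) and 0.26 (adjusted p = 0.345). The interaction was 1.42 (standard error 0.22, 95% interval 0.95 to 1.89, unadjusted p = 2.51e-05), and it passed the threshold in 1 of 12 fits with a library left out, at 1.60 without wild-type morphine mouse 1.2 (adjusted p = 0.0170). Fmo2, a flavin monooxygenase, was the other gene that passed in such a fit, at -2.77 without wild-type PBS mouse 1 (adjusted p = 0.0223).

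Among the other genes with a higher response in VDR-/- mice, Spef1, a microtubule-binding protein, was at 105, 123 and 113 in wild-type mice given PBS, 116, 107 and 109 in wild-type mice given morphine, 80.7, 84.3 and 91.2 in VDR-/- mice given PBS and 131, 139 and 148 in VDR-/- mice given morphine. The wild-type groups overlapped and the VDR-/- groups did not, with -0.04 in wild-type and 0.70 (adjusted p = 0.00425) in VDR-/- mice and an interaction of 0.74 (standard error 0.15, 95% interval 0.42 to 1.06, unadjusted p = 0.000255). Amotl2, a scaffold of the Hippo pathway, Mafg, a small Maf factor, Smad7, the inhibitor of TGF-beta signaling, and Zbtb2, a zinc finger repressor, had the same form. They rose past the threshold in VDR-/- mice, by 0.55, 0.23, 0.50 and 0.45, and were at -0.05, -0.10, -0.01 and -0.16 in wild-type mice. Setd1b, Fbxo46, an F-box protein, and Spata2l fell past the threshold in wild-type mice, by 0.23, 0.38 and 0.55, and were at 0.15, 0.21 and -0.06 in VDR-/- mice. Hbegf, a ligand of the EGF receptor, passed in neither genotype (-0.35 and 0.40) but had an interaction of 0.74. The interactions of these 12 genes, Xbp1 and Nr1d1 included, ran from 0.34 to 1.42, and each kept its sign with every library left out in turn. The genes were taken by their small p in the same libraries, so the kept sign adds no support.

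Among the genes with a lower response in VDR-/- mice, Dpp10, an auxiliary subunit of potassium channels, was at 1727, 1971 and 1835 in wild-type mice given PBS, 2569.7, 2419 and 2509 in wild-type mice given morphine, 2270.0, 2317 and 2169.8 in VDR-/- mice given PBS and 2277, 2354 and 2374 in VDR-/- mice given morphine. It rose in wild-type mice by 0.44 (adjusted p = 0.00231) without overlap and was at 0.05 (adjusted p = 0.652) in VDR-/- mice, an interaction of -0.39 (standard error 0.08, 95% interval -0.57 to -0.20, unadjusted p = 0.000584). Zfp189, a zinc finger protein, was at 126, 147 and 111 in wild-type mice given PBS, 188, 218 and 251 in wild-type mice given morphine, 182, 208 and 184 in VDR-/- mice given PBS and 167, 201 and 194 in VDR-/- mice given morphine. It too was separated in wild-type mice (0.77, adjusted p = 0.00739) and overlapped in VDR-/- mice (-0.03), an interaction of -0.80 (standard error 0.19, 95% interval -1.20 to -0.39, unadjusted p = 0.00108). Olfm3, a secreted olfactomedin, and Fzd4, a receptor of Wnt and norrin, rose in wild-type mice by 0.31 and 0.58 and were at -0.09 and 0.01 in VDR-/- mice. In contrast, Fam228b, Hhipl1, Parn, a poly(A) ribonuclease, Map2k5, a MAP kinase kinase, and Nhlrc3 fell past the threshold in VDR-/- mice, by 0.52, 0.47, 0.38, 0.36 and 0.33, against wild-type responses of -0.04 to 0.22. Lyrm9 (-0.39) and Polr3e, a subunit of RNA polymerase III (-0.44), passed in neither genotype. With Sgk1, these 12 interactions ran from -0.89 to -0.37, and each kept its sign with every library left out. Here too the choice by small p makes this no support.

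Genes called in one genotype with the opposite sign in the other numbered 40 among the wild-type and 43 among the VDR-/- calls, of which 30 and 32 were protein-coding with a mean of at least 50. By interaction p, the leading ones were Tuba1c, Setd1b, Olfm3, Fbxo46, Zfp189 and Caskin2 among the wild-type calls and Xbp1, Spef1, Fam228b, Amotl2, Mafg and Smad7 among the VDR-/- calls. Caskin2, a scaffold protein, fell by 0.41 (adjusted p = 0.0278) in wild-type mice and was at 0.11 in VDR-/- mice. None of these 12 passed the threshold in the second genotype.

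The interaction can also be split into the genotype difference with PBS and that with morphine, which were taken on log2(CPM + 1) of the recovered reads because the deposited values of the genotypes are scaled separately. For most genes with a low interaction p the genotypes lay further apart with PBS than with morphine. Among the 916 genes this held for 701 (76.5%), with a median absolute difference of 0.271 with PBS and 0.127 with morphine, against 61.6% of all genes tested (0.109 and 0.0733). Without wild-type PBS mouse 2 it held for 76.9% of 1257 genes, against 60.5% of all. Of the activity-regulated transcription factors, the median difference between VDR-/- and wild-type mice was -0.35 with PBS and 0.16 with morphine. The chaperones of the endoplasmic reticulum had -0.23 and 0.05, the MAP kinase inhibitors -0.24 and 0.08, and glucocorticoid-responsive genes 0.28 and 0.03.

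Single genes show the same split. Xbp1 was lower in VDR-/- than in wild-type mice by 0.40 with PBS and higher by 0.15 with morphine, Fos differed by -0.48 and 0.21, Arc by -0.81 and 0.48 and Npas4 by -0.57 and 0.42. Sgk1 differed by 0.66 and -0.20 and Plin4 by 1.62 and 0.55. Ptgs2 was the reverse case, with 0.03 with PBS and 0.81 with morphine. This split is a description, since both differences enter the interaction by which the genes were taken.

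**Figure D5:**
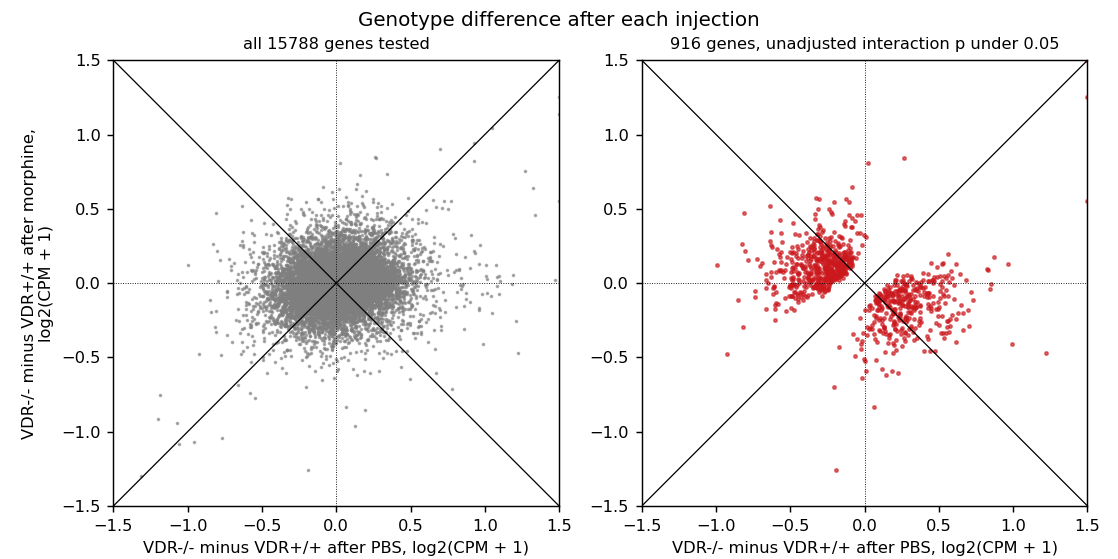
Difference between VDR-/- and wild-type mice in log2(CPM + 1) with PBS (horizontal) and with morphine (vertical), for all 15788 genes tested (left) and the 916 with an unadjusted interaction p under 0.05 (right), with values beyond 1.5 drawn at the edge. Genes between the diagonals on the left and right sides lie further apart with PBS, which holds for 61.6% on the left and 76.5% on the right.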

How the data were processed

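Strand-specific mRNA libraries of nucleus accumbens punches were used from 12 mice, 3 for each genotype and injection. The authors trimmed reads with Trimmomatic 0.36, mapped them with STAR 2.4.2a to a GENCODE mouse annotation of GRCm38 and took the number of reads on each gene. The deposited values are normalized counts, a signal divided by size factors, and each pair of groups has 1 table. The table of wild-type mice and that of VDR-/- mice were used, with 12 library columns. Dividing a library's values by what 1 read is worth there gave whole reads for 100% of values (tolerance 0.01), and these counts served for CPM and for the count tools.

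Of 27778 genes in either table, 99.8% matched GENCODE M21. The 15788 genes in both tables with a mean value of at least 10 were fitted together on log2(value + 1) with limma 3.58.1 (4 group means, eBayes with trend, two-sided, Benjamini-Hochberg adjustment, threshold 0.05). The pseudocount of 1 understates changes of low genes. Each response came from its own table, so the separate scaling cancels within a genotype. edgeR 4.0.16 and DESeq2 1.42.0 (R 4.3.3) were run on the recovered reads. The fits were also run on simulated counts as a check of the code. Those counts had the same spread for all genes and no outlying library, so they do not measure the accuracy of the fits here. Alternatives were quantile normalization, pseudocounts of 0.5 and 10, no filter or a mean of at least 50, no variance trend, sample weights, a block, own-table fits and each library left out. P-values measure the spread between mice as labelled. The members, gene lists and tests were chosen with earlier results of these data known.

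Genes named were the 12 with the smallest unadjusted interaction p in each direction (protein-coding, mean of at least 50), the 10 called most firmly in both genotypes, up to 6 per genotype called with opposite signs, and, for each list, members with an unadjusted p under 0.05 and those with the largest responses, beside the 8 genes of the exact permutation tests. Other list members were named after their values were seen. Promoter windows came from RefSeq.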

Additional observations from a re-analysis of the deposited data

Results flagged for a closer look

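In 2 of the 8 genes tested by exact permutation the interaction had an unadjusted p under 0.05 in either or both permutation schemes, with no adjustment over the 8 genes. The statistic was the interaction, but each scheme assumes that the permuted factor, injection or genotype, has no effect at all. The 8 genes were chosen with earlier results of these data known. For Npas4 the interaction was 1.01, with p = 0.04 (exact permutation of injection within genotype) and p = 0.01 (exact permutation of genotype within injection). All 3 VDR-/- morphine values lay above the VDR-/- PBS values, while the wild-type groups overlapped. Over all 15788 genes tested, 5987 were separated in VDR-/- mice, 4033 in wild-type mice and 2174 in both. For Arc the interaction was 1.29, with p = 0.005 by exact permutation of genotype, the smallest value that 400 arrangements allow, and p = 0.05 by permutation of injection. Neither gene passed limma's test over all genes (adjusted p = 0.832 for Npas4 and 0.832 for Arc, Benjamini-Hochberg). Their interactions stayed between 0.80 and 1.18 and between 1.05 and 1.55 with each library left out.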

How the results depend on the processing

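The count of interactions past the threshold was 0 under every alternative run except without wild-type morphine mouse 1.2 or wild-type PBS mouse 1, so that it ranged from 0 to 1 with each library left out. The response counts moved more. The wild-type count of 1052 became 681 without a variance trend, 572 with the replicate block, 128 in its own table, and 358 (without morphine mouse 1.1) to 1347 (without PBS mouse 1) with each library left out, 583 and 488 without morphine mice 1.0 and 1.2. The VDR-/- count of 1081 became 3657 with sample weights, 646 with the replicate block, 3018 in its own table, and 232 (without PBS mouse 9) to 2531 (without wild-type PBS mouse 2) with each library left out, 506, 332 and 361 without morphine mice 2.0, 2.1 and 2.2 and 337 without PBS mouse 7. The labels give no number shared by PBS and morphine mice, so the block used only the digit after the point of the morphine mice, which the labels do not tie to any litter or day. The correlation of the responses was 0.368 without a filter on low values, against 0.62. Reversed with a library left out were the wild-type responses of Oprm1 (-0.073 without PBS mouse 2, up to 1.96 without PBS mouse 1) and Lrp2 (-0.031 without morphine mouse 1.1 and -0.070 without PBS mouse 2, up to 1.54 without PBS mouse 1), and the interaction of Bdnf (-0.082 without wild-type PBS mouse 3, up to 0.72 without PBS mouse 1). The exact permutation p of Bdnf was 0.94 and 0.995 without the former mouse and 0.415 and 0.25 without the latter (injection and genotype permuted). The causes were not tested. Of the remaining values, 56 of single genes lost the threshold under an alternative, 16 gained it and 16 counts or list medians moved beyond the spread, against 4902 that kept direction and side. The 4902 do not measure whether sizes held, since a value far from the threshold rarely changes side. The wild-type response of Oprm1 counted as kept at 0.22 with sample weights, against 1.24 in the main fit. With 3 mice a group, interactions below about 1 log2 unit were often within the error. In genes at a few reads, such as Tuba1c in wild-type mice, the counts limit the precision.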
